A study of Mus musculus with 9 samples.

Results

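The ribosomal protein genes are the mouse genes for the protein parts of the cytosolic ribosome, and their transcripts were read here in pooled embryos at embryonic day 7.5, the stage of gastrulation. Members were the genes whose single symbol in the platform's probe set annotation is Rpl, Rps or Rplp followed by a number and, in some, letters. The rule used symbols and no measured value. It found 41 genes, 22 of the large subunit and 19 of the small subunit, of 15965 genes with a single symbol on the 3 array designs, and they are carried by 67 of 29197 such probe sets. A further 51 probe sets list several symbols, a matching one among them. These are not members, no gene is named from them, and 29 matching symbols occur in them alone.

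The conditional knockout was a pool of about 50 embryos in which Cre recombinase, driven by the cytokeratin 19 promoter, removes beta-catenin. In the first control pool 1 allele of that gene was floxed and the other deleted. In the second 1 allele was wild type and the other floxed, and the number of embryos in the control pools is not stated. The labels give the same age for all 3 pools, and whether the control pools carried Cre is not stated. The total RNA of each genotype was read on 1 one-colour Affymetrix array of each design, called A, B and C here. The beta-catenin gene itself, Ctnnb1, stood at 1376 in the knockout, 1509 in floxed/deleted embryos and 1773 in wild type/floxed on its 1 probe set, so its transcript was lowest in the knockout but not lost. Whether its probes match the removed exons is not known here, so it is a weak check of the labels. A difference therefore has no replicate check, and none was tested. In pooled whole embryos, fewer cells of a type and less RNA per cell cannot be told apart.

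A ribosome is built from ribosomal RNA and a fixed set of proteins, the Rpl proteins in the large subunit and the Rps proteins in the small subunit. Rplp0, Rplp1 and Rplp2 form the stalk that recruits elongation factors. Cells make these proteins in matched amounts, and their transcripts are among the most abundant in dividing embryonic cells. In mammals most of these transcripts begin with a terminal oligopyrimidine tract, a C followed by a run of C and T letters. The growth regulator mTOR controls their translation through it.

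That tract is a feature the members share and the rule did not use, so the annotated start of 6 members with a mean signal of at least 1000 is shown. The stretches come from the RefSeq promoter table on build GRCm38.p6 and hold 40 bases before and 15 bases from the annotated start, read along the coding strand. Capitals mark a C followed by at least 4 more C or T letters, where that C lies within 10 bases of that start. The run of C and T letters can begin further upstream, as it does for Rpl7a, and only its part from that C is marked. The first 4 were picked, after the sequences were seen, for a tract, and the last 2 have none at this position. For Rps24 the first of 2 listed starts is shown, and which gene its bright probe set reads is not certain, as described below.

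Rplp2 (chr7:141447611-141447665, plus strand): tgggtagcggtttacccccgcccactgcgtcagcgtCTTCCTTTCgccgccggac
Rps10 (chr17:27635230-27635284, minus strand): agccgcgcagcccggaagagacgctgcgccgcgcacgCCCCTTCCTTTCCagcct
Rpl7a (chr2:26910767-26910821, plus strand): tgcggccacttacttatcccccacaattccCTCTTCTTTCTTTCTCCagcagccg
Rps24 (chr14:24490638-24490692, plus strand): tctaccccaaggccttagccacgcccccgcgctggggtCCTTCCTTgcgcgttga
Rplp0 (chr5:115559427-115559481, plus strand): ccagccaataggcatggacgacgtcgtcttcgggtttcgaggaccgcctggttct
Rps28 (chr17:33824548-33824602, minus strand): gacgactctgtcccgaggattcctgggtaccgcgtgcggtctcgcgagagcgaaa

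Of the 41 members 34 have an entry in that table, and 23 of these (67.6%) held such a match. The search used the coding strand alone and counted a gene with several starts once. It included runs whose first letters lie more than 10 bases before the start. Among all protein-coding genes in the table the share was 34.9% (6111 of 17491). Mitochondrial ribosomal protein genes, whose products build the separate ribosome of mitochondria, had it in 31 of 69 (44.9%). A match describes the letters at the annotated start, which may not be the start used in these embryos.

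The deposited values are signal intensities on a linear scale, 1 per probe set, and the arrays of a design had been brought to the same level by the authors. Values below the median of a design (57.3 on A, 90.0 on B and 80.9 on C) were raised to it before log2 was taken. A probe set counted as measured when at least 1 of its 3 values lay above that floor. Of the members, 34 were measured, 18 Rpl and 16 Rps genes, and 30 of them lay above the floor in all 3 pools. The brightest measured probe set stands for a gene unless another is named. It lay on design A for 23 members, on B for 1 and on C for 10.

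The signal of the members spanned a wide range, and most of the total came from a few bright probe sets. The brightest probe sets averaged from 47.2 to 25282 over the pools, with a median of 4019, against a median of 181 over all 12443 measured genes. On design A the 46 member probe sets held 5.81% of all signal in the knockout, 6.66% in floxed/deleted embryos and 6.22% in wild type/floxed. Without probe sets whose name carries a suffix, which marks sequence shared between transcripts or a relaxed choice of probes, the shares were 4.10%, 4.52% and 4.37%. On design C, where 20 member probe sets held 1.22%, 1.22% and 1.29%, most of it came from the Rps20 probe set described below.

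The 20 members with a mean signal of at least 1000 give the steadiest view, since each lies far above the floor in every pool. In 15 of them the knockout was the lowest of the 3 pools and in 3 the highest. Among all 827 genes of that brightness the knockout was lowest in 29.4% and highest in 41.8%. The count depended on the scaling of the arrays: with equal medians the knockout was lowest in 8 and highest in 5, and with quantile normalization lowest in 9 and highest in 3. Floxed/deleted was highest in 12 of the 20 and lowest in 2, against 28.4% and 38% of those genes. Wild type/floxed was highest in 5 and lowest in 3, against 29.7% and 32.6%. These counts share the same arrays and are not independent of one another.

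The differences were small. Where the knockout was lowest, its fold to the nearer control ran from 1.01 to 1.20, with a median of 1.08. The median log2 difference of the 20 members, knockout minus the mean of both controls, was -0.14, and over the other 807 bright genes it was 0.055. With equal medians the members stood at -0.048, and with quantile normalization at -0.029. Between floxed/deleted and wild type/floxed the 20 members stood at a median of 0.028, with a standard deviation over genes of 0.20.

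**Figure D1:**
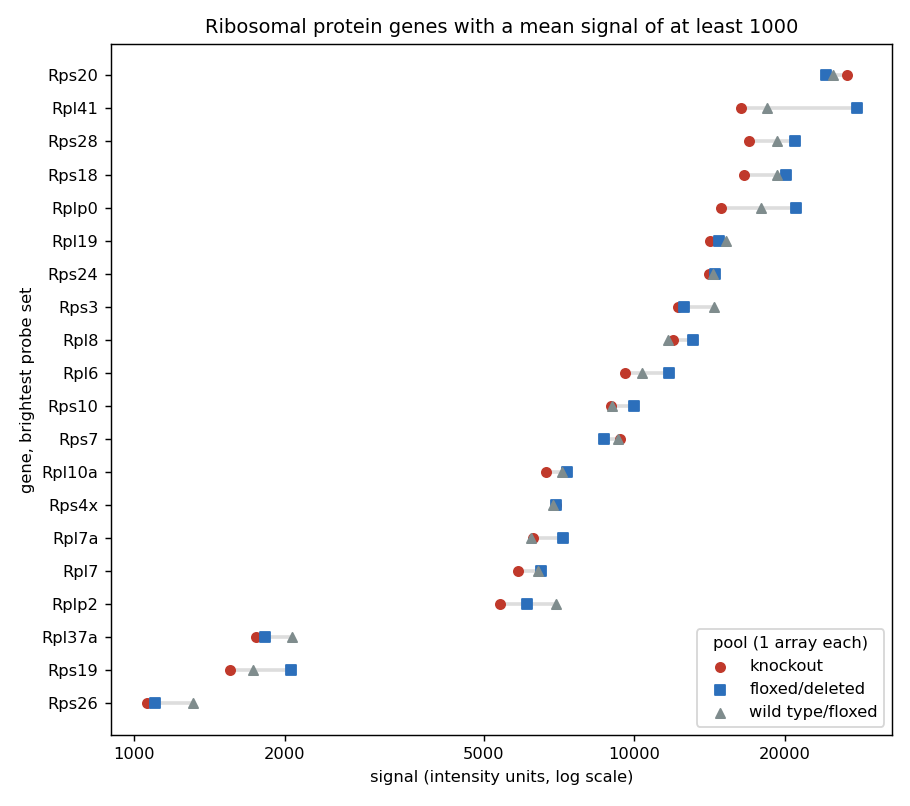
Signal (intensity units, log axis) of the 20 ribosomal protein genes with a mean signal of at least 1000, 1 row per gene and 1 point per pool: red circles are the knockout, blue squares floxed/deleted and grey triangles wild type/floxed. The red circle lies leftmost in 15 rows, and the widest row is that of Rpl41, where floxed/deleted stands apart at 27912.

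The stalk gene Rplp0 had the largest fold below the nearer control among bright members. Rplp0, the base of the stalk, had a signal of 14948 in the knockout, 21056 in floxed/deleted embryos and 17914 in wild type/floxed. It lay 1.20-fold under the nearer control in the knockout. Rplp2, which sits on Rplp0 as a partner of Rplp1, stood at 5387 in the knockout, 6113 in floxed/deleted embryos and 6969 in wild type/floxed. Its probe set, on design C, carries a suffix. The knockout was lowest for both, while the controls stood in opposite orders. Rplp1 has no probe set with a single symbol here.

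Among other large-subunit genes, Rpl41, which encodes a very short peptide of the ribosome, stood at 16376 in the knockout, 27912 in floxed/deleted embryos and 18469 in wild type/floxed. Floxed/deleted stood far above the other pools here, so the log2 difference was -0.47 while the fold to the nearer control was 1.13. Rpl6, a large-subunit protein, had 9570.4, 11763 and 10374 in the same order of pools. Rpl19, which takes part in a contact between the subunits, stood at 14168 in the knockout, 14753 in floxed/deleted embryos and 15267 in wild type/floxed. For Rpl6 and Rpl19 the knockout was the lowest pool. Rpl10a (6665, 7352 and 7159), Rpl7 (5845, 6502 and 6426) and Rpl37a (1753, 1823 and 2072) had the same order of knockout below both controls. Rpl7a (6264, 7201 and 6211) and Rpl8 (11945, 13134 and 11702) did not, since wild type/floxed was lower still. No bright large-subunit member was highest in the knockout on its brightest probe set. On a second, suffixed probe set of design A, Rpl10a was highest in the knockout, with 1003, 837 and 950.

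Among the small-subunit genes, Rps18 had a signal of 16577 in the knockout, 20117 in floxed/deleted embryos and 19318 in wild type/floxed, 1.16-fold lower than the nearer control. Rps28, a small-subunit protein, had 16979, 20935 and 19297 on its brighter probe set. A second one, without a suffix, gave 9528, 13051 and 10539. Both Rps28 probe sets were lowest in the knockout, 1.14-fold and 1.11-fold below the nearer control. Rps19, whose human counterpart is mutated in Diamond-Blackfan anaemia, had 1553 in the knockout against 2055 in floxed/deleted embryos and 1724 in wild type/floxed. Rps3, at the entry of the messenger channel, stood at 12241, 12606 and 14437.5. The knockout was the lowest pool for each of these 4 genes. Rps10 (8981, 10000.4 and 9033), Rps24 (14094, 14526 and 14352) and Rps26 (1060, 1101 and 1308 in the same order) were lowest in the knockout by at most 1.04-fold. The Rps24 and Rps26 probe sets carry a suffix. That of Rps24 is listed with the same source sequence as the Rpl7 probe set, so which gene it reads is not certain here. The suffix-free Rps24 probe set was below the floor in every pool (13.9, 22.6 and 39).

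The 3 bright members with the opposite order were highest in the knockout, all of the small subunit. Rps20 stood at 26634 in the knockout, 24159 in floxed/deleted embryos and 25053 in wild type/floxed, on a suffixed probe set of design C. A suffix-free Rps20 probe set of that design was above the floor in floxed/deleted alone (59.0, 105 and 60.1). The one on design A was below the floor in every pool. Rps7, which can bind the p53 regulator Mdm2, had 9365, 8701 and 9297. Rps4x, the X-linked form of Rps4, had 6987, 6971 and 6874. The fold to the nearer control was 1.06 for Rps20 and 1.01 for Rps7, and the 3 values of Rps4x were nearly equal.

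Over all 34 measured members the median log2 difference was -0.15, beside -0.018 over all 12443 measured genes. With equal medians it was -0.053, beside 0.056, and with quantile normalization -0.039, beside -0.020. Rpl genes stood at -0.18 and Rps genes at -0.057, and between the controls all members stood at 0.014. With arrays scaled to equal medians the Rpl median was -0.11 and the Rps median 0.036. Among members with a signal of at least 1000 the subunits lay closer together, 10 Rpl genes at -0.15 and 10 Rps genes at -0.11. A difference between the subunits was not tested. The knockout was lower than both controls by any amount in 21 of the 34 members and higher in 6, against 26.2% and 33.5% of all measured genes. With equal medians the knockout was lower in 14 members and with quantile normalization in 15, against 21.4% and 26.8%. Of the members, 4 entered through a value above the floor in some pools only, and any member below the floor in every pool is not counted.

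Few members stood far apart in any pool. Rpl13 and Rps14 were at least 1.5-fold lower in the knockout than in both controls, and 0 of the 34 were at least 1.5-fold higher. The shares over all measured genes were 5.76% lower and 6.54% higher, so 2 of 34 is near the background. With arrays scaled to equal medians only Rpl13 passed. In floxed/deleted, Rps27 was lower and Rpl41 higher than both other pools by that fold, against 5.59% and 7.45% of all measured genes. In wild type/floxed 0 were lower and Rpl3l was higher, against 5.6% and 6.56%.

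**Figure D2:**
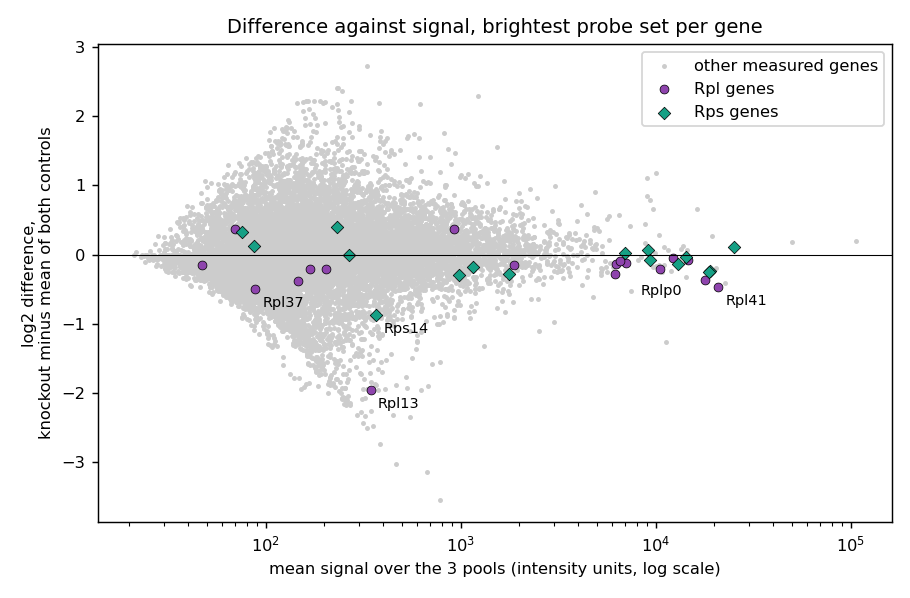
Log2 difference, knockout minus the mean of both controls, against the mean signal over the 3 pools (intensity units, log axis), 1 point per measured gene: purple circles are Rpl genes, green diamonds Rps genes and grey points all other genes. Bright members lie in a narrow band between -0.47 and 0.11, and Rpl13 at -1.96 and Rps14 at -0.87 lie below it at low signals.

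The members furthest from zero, Rpl13, Rps14 and Rpl37, were dim, and the bright Rpl41 came next at -0.47. Rpl13, a large-subunit protein mutated in a human skeletal dysplasia, had a signal of 118 in the knockout, 438 in floxed/deleted embryos and 481 in wild type/floxed on design C, 3.73-fold below the nearer control. Rps14, whose loss in people contributes to a myelodysplastic syndrome, stood at 234, 357 and 514 on a suffixed probe set of design C, 1.52-fold lower. Its other probe set, on design A, was below the floor in every pool. Rpl37 stood at 35.4 in the knockout against 118 in floxed/deleted embryos and 111 in wild type/floxed. With the knockout below the floor it was at least 1.38-fold lower, and it passed 1.5-fold with a floor at the 30th percentile. Rpl27, on design B, stood at 122 in the knockout, 153 in floxed/deleted embryos and 167 in wild type/floxed. Rpl22, known for its role in T cell development in mice, had 152, 168 and 184 on its brightest probe set. A suffixed Rpl22 probe set on design C was highest in the knockout (113, 9.7 and 109). Another on design A was above the floor in floxed/deleted alone (8.8, 66.4 and 17.8).

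Among other dim members the order of the pools varied. Rpl13a, which human monocytes release from the ribosome in the interferon-gamma response, stood at 1093 in the knockout, 837 in floxed/deleted embryos and 859 in wild type/floxed, 1.27-fold higher. Rps29, a small zinc-binding protein, had 87.3, 61.0 and 79.6. Rpl38, whose loss in mice disturbs the axial skeleton and the translation of some Hox transcripts, had 105 in the knockout, 81.6 in floxed/deleted embryos and 22.8 in wild type/floxed on a suffixed probe set. Its 2 probe sets on design A were below the floor in all pools. Rps27, also a zinc-binding protein, had 266 in the knockout and 287 in wild type/floxed, and floxed/deleted was the low pool with 143. Rps13 had 266, 282 and 255, with the knockout between the controls. Rpl39 was above the floor in floxed/deleted alone, with 29.6 in the knockout, 70.6 in floxed/deleted embryos and 41.5 in wild type/floxed.

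Some genes had dark probe sets beside a bright one. Of the 67 member probe sets, 19 were below the floor in every pool, and 8 of these belong to 5 genes that also have a probe set of at least 1000. Rps4x had 6944 on average on its brightest probe set and between 6.5 and 15.9 on the other 4, so a dark probe set can stand for a gene that a second one reads as bright. The 7 members with no measured probe set were Rpl10l, Rpl32, Rpl35a, Rpl39l, Rps6, Rps15 and Rps15a. Rps6, the target of the S6 kinases downstream of mTOR, had 29.4 in the knockout, 37.0 in floxed/deleted embryos and 45.5 in wild type/floxed on its single probe set. Of the fixed names, Rpl5, Rpl11 and Rpl24 have no single-symbol probe set here.

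The paralogs named here, some of them known mainly from other tissues, were dim or absent above the floor. Rpl10l and Rpl39l, known from the testis, were unmeasured. Rpl3l, a paralog of striated muscle, had 178 in the knockout, 155 in floxed/deleted embryos and 278 in wild type/floxed on one suffixed probe set. On the other it had 271, 46.6 and 195. Rps27l, a p53-responsive paralog of Rps27, stood at 101, 54.3 and 106 on design C. Rps4l was the exception with 851, 1188 and 924 on a suffixed probe set, and 16, 59.7 and 45.1 on one without a suffix. On the first the knockout was lower than both controls.

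Probe sets of a gene did not always point the same way. Of 11 members with several measured probe sets, 5 had a knockout below the controls' mean on all of them, 1 above on all, and 5 were mixed. Rps3 was lower on 3 of 3. Besides the bright one it had 258 in the knockout, 459 in floxed/deleted embryos and 575 in wild type/floxed, and 46.8, 183 and 265, on 2 suffixed probe sets of design C. Those gave 1.78-fold and at least 2.26-fold below the nearer control, against 1.03-fold on the bright probe set. Rplp0 was mixed, with 573 in the knockout against 256 in floxed/deleted embryos and 320 in wild type/floxed on a suffixed probe set of design C, 1.79-fold higher, while the bright one was lower. Rps13 had 40.1, 243 and 165 on a suffixed probe set of design A, at least 2.87-fold lower, beside nearly equal values on design C.

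**Figure D3:**
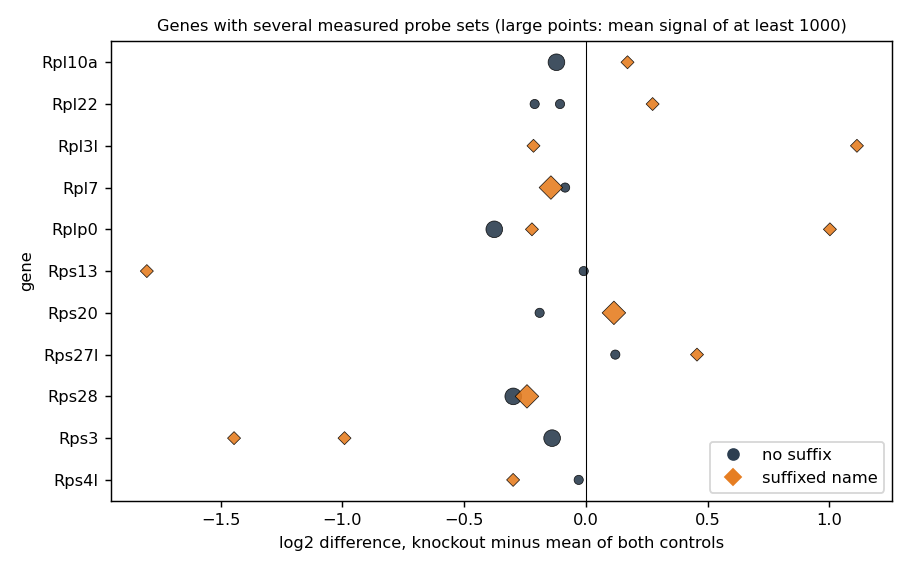
Log2 difference, knockout minus the mean of both controls, for each measured probe set of the 11 genes that have several; dark circles have no suffix, orange diamonds have a suffixed name, and large points have a mean signal of at least 1000. Large points lie between -0.38 and 0.11, while small points run from -1.80 to 1.11.

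By design, the 30 measured member probe sets on A had a median log2 difference of -0.11, beside -0.025 over all measured probe sets there. On A, 1 was at least 1.5-fold lower in the knockout and 0 higher, against 3.54% and 3.31% of all. On C the 17 member probe sets had a median of -0.19, beside -0.086 over all. There 4 were at least 1.5-fold lower, from Rpl13, Rps14 and Rps3 (2 probe sets), and 1 was higher, against 8.12% and 11.9%. Design B held 1 member probe set. The standard deviation over the members was 0.39 on A and 0.78 on C. Probe sets without a suffix had a median of -0.11 (28 probe sets) and those with one -0.20 (20 probe sets), beside -0.040 and -0.053 over all measured probe sets of each kind.

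The size of the bright members' shift depended on how the arrays were scaled. The other bright genes stood at 0.14 with equal medians and at 0.0037 with quantile normalization. The members thus lay 0.20 below the other bright genes with equal trimmed means, 0.19 below with equal medians and 0.032 below with quantile normalization. The 8 and 9 members in which the knockout was lowest under these scalings compare with 18.1% and 36.6% of other bright genes. The sign of the median was the same under all 3 scalings, and its size under quantile normalization was close to zero.

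**Figure D4:**
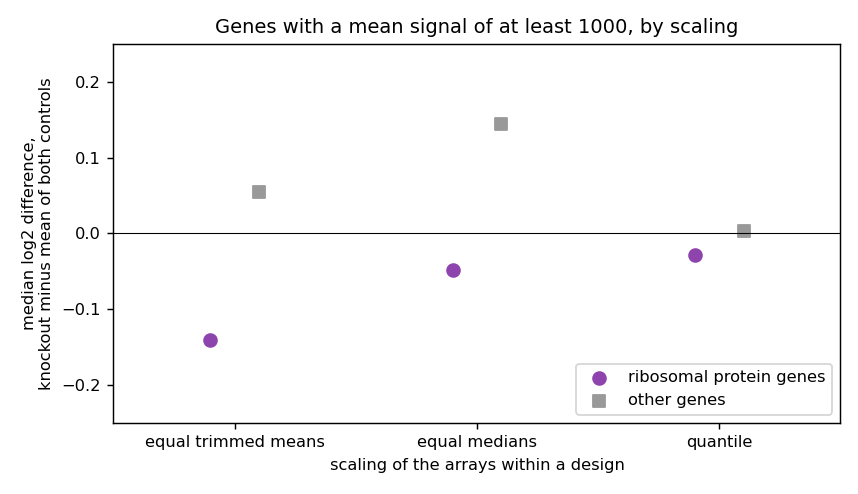
Median log2 difference, knockout minus the mean of both controls, for genes with a mean signal of at least 1000 under 3 scalings of the arrays; purple circles are ribosomal protein genes and grey squares all other genes. The circle lies below the square under each scaling, by 0.20, 0.19 and 0.032 from left to right.

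The same view was taken by level. Of 10 members with a mean signal of at least 10000, the knockout was lowest in 8, at a median of -0.17, beside 9 of 20 other genes at 0.062. With quantile normalization these 10 stood at -0.024 with 3 lowest, beside 0 and 8 of the 20. With equal medians the 10 stood at -0.079 with 5 lowest, beside 0.16 and 8 of the 20. Of 7 members between 5000 and 10000 it was lowest in 4, at -0.093, beside 12 of 29 others at 0.023. With equal medians these 7 stood at 6.6e-05 with 2 lowest, beside 0.12 and 8 of the 29. With quantile normalization they stood at -0.022 with 3 lowest, beside 0.030 and 12 of the 29. Of 3 members between 1000 and 5000 the knockout was lowest in 3, at -0.18, beside 207 of 758 others at 0.055. With equal medians these 3 stood at -0.098 with 1 lowest, beside 0.14 and 132 of the 758. With quantile normalization they stood at -0.27 with 3 lowest, beside 0.0039 and 273 of the 758. The 14 members below 1000 stood at -0.18 with a standard deviation of 0.63, beside -0.026 over the other 11602 genes of that level.

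Probe sets that list several symbols were described in the same way. Of the 23 with a mean signal of at least 1000, the knockout was lowest in 16 and highest in 2, at a median of -0.11, beside 29.4% and 41.8% of all bright genes. With equal medians this was 8 and 4 at -0.017, beside 18.7% and 53.9%. With quantile normalization it was 9 and 6 at -0.046, beside 36.8% and 32.7%. All 45 measured ones, dim ones included, stood at -0.060, beside -0.018 over all measured genes. With equal medians they stood at 0.033, beside 0.056, and with quantile normalization at 0.0044, beside -0.020. Of the 45, 1 was at least 1.5-fold lower in the knockout than in both controls and 4 higher, beside 5.76% and 6.54% of all measured genes. Of the ribosomal proteins whose symbols the rule does not match, 4 were measured. Rpsa, also known as a laminin receptor, stood at 3125 in the knockout, 3597 in floxed/deleted embryos and 3347 in wild type/floxed. Rps3a1 stood at 8937, 10001 and 10225, so both bright ones had the knockout lowest. Rpl7l1 had 215, 170 and 184, and Fau had 49.1, 83.7 and 9.6.

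Other genes of protein synthesis were summarised beside the members. Translation factors and other genes known or thought to carry the tract stood at 0.013 over 25 measured genes, with 0 at least 1.5-fold lower and 1 higher, beside 5.76% and 6.54% of all measured genes. The same shares apply to the lists that follow. That one was Eif3f, an initiation factor subunit, with 117 in the knockout and a value under the floor in each control, at least 2.04-fold higher. The 14 genes of this list with a signal of at least 1000 stood at 0.0034. The knockout was lowest in 6 and highest in 4, beside 29.4% and 41.8% of all bright genes. With equal medians these were 0.096, 3 and 7, beside 18.7% and 53.9%. With quantile normalization they were -0.00043, 5 and 5, beside 36.8% and 32.7%. The brightest of the 14, chosen after the values were seen, was the elongation factor gene Eef1a1. It had 18256.5 in the knockout, 28389.5 in floxed/deleted embryos and 21009 in wild type/floxed. The knockout was lowest there and for Tpt1, a growth-related gene with the tract (9576.5, 12106 and 10761). Ribosome biogenesis genes stood at 0.10 over 38 genes, with 0 lower and 1 higher, the polymerase I factor gene Rrn3 (214 in the knockout, 131 in floxed/deleted embryos and 127 in wild type/floxed). The 68 measured mitochondrial ribosomal protein genes stood at 0.053, with 2 lower and 2 higher. Mrps27 had 439 in the knockout against 169 and 166, and Mrpl32 had 188 against 70.9 and 104. Mrpl33 had 69.1 against 122 and 126, and Mrpl50 had 151 against 344 and 233. Whether these medians differ from that of the members was not tested.

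Genes of the mTOR pathway and the Myc family stood at 0.24 over 22 measured genes. The knockout was higher than both controls by any amount in 13 and lower in 5, beside 33.5% and 26.2% of all measured genes. By at least 1.5-fold 3 were lower and 1 higher, beside 5.76% and 6.54% of all measured genes. Ddit4, an inhibitor of mTOR signalling, had 58.1 in the knockout against 217 in floxed/deleted embryos and 210 in wild type/floxed. The kinase gene Akt2 had 149 against 293 and 338, and the S6 kinase gene Rps6kb2 had 86.0 against 144 and 211. Rheb, the activator of mTOR, had 187 against 109.5 and 59.6. These are transcript levels, and no activity of the pathway was measured.

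Other features of the arrays are given beside the members. Of 21 measured visceral endoderm markers, genes of the epithelium around the embryo, 16 were higher and 2 lower in the knockout than in both controls. These counts are by any amount, beside 33.5% higher and 26.2% lower over all measured genes. The summed signal of these markers was 52536 in the knockout, 29955 in floxed/deleted embryos and 34076 in wild type/floxed. Most of each sum came from Apoa1, Amn and Apoe, which lie on designs B, C and A, and signal levels differ between designs. Of 9 measured epiblast and mesoderm markers 4 were higher and 4 lower, beside the same shares. Their summed signals were 5392, 4018 and 3599, most of which came from Utf1 and Pou5f1. The epiblast genes Utf1 (2735 in the knockout, 1080.2 in floxed/deleted embryos and 795 in wild type/floxed) and Sox2 (233, 77.9 and 107) were at least 1.5-fold higher. The primitive streak and mesoderm genes Wnt3a (23.3, 179 and 218), Cdx1 (9.1, 208 and 237) and Tbx6 (100.3, 268 and 307) were lower by at least that fold. Of the rest of the list, Pou5f1 (1444, 1203 and 1107) and Eomes (131, 98.7 and 67.5) were higher by less than that fold. Fgf8 (372, 476 and 450) was lower by less than that fold. In Mesp1 (344, 427 and 310) the knockout lay between the controls. Of 5 primitive erythroid markers on the arrays 3 were measured, with summed signals of 162, 251 and 107, and none lay above the floor in every pool. Of 6 decidual markers 2 were measured, each above the floor in 1 pool alone, Prl8a2 in the knockout (102, 17.6 and 11.4) and Cd52 in floxed/deleted (35.5, 62.9 and 24.9). Their sums of 138, 80.5 and 36.3 hold values under the floor in every pool. No measured marker was listed at 0. The quality of the RNA was read from the 5′ to 3′ signal ratio of control transcripts. For beta-actin it was 0.570 in the knockout, 0.655 in floxed/deleted embryos and 0.696 in wild type/floxed on design A. On C it was 0.613, 0.698 and 0.681. For Gapdh on A the knockout lay between the controls, at 1.09, 1.07 and 1.15. The part of these features in the members' difference was not tested.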

How the data were processed

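Total RNA of 3 embryo pools was measured on 9 arrays, 1 per pool and design. Per the file headers the arrays are Affymetrix MG_U74 designs. The deposited values are intensity, 1 per probe set, and their trimmed means show that the authors had brought the arrays to a common level. How probes were summarised is a step not given in the labels or headers used. With Python 3.11.15 and pandas 2.3.3, arrays of a design were scaled to equal means without the lowest and highest 2%, floored at the design's median and put on the log2 scale. Folds are against the nearer control, and "at least" marks a floored side. No test was run, since each group has 1 array per design, so the number of arrays limits the precision. Functions were tested on simulated data. Named genes were fixed members, members at least 1.5-fold from both controls, the 5 brightest on design A and the 5 highest and lowest differences; others are named as examples chosen after their values were seen. The gene table of GRCm38.p6 held the gene of all 67 member probe sets under the same symbol. The members and lists were chosen with earlier results of these data known, and so were the signal of 1000 and the alternatives at that signal, with probe sets of several symbols or without paralogs.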

Additional observations from a re-analysis of the deposited data

How the results depend on the processing

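With 1 array per pool and design, a median was taken to have moved when it changed by at least 0.1 on the log2 scale, and a count when it changed by over 1.5 times. The members' median of -0.15 in the knockout stayed negative under all 21 alternatives, from -0.39 to -0.039. It moved with quantile normalization (-0.039) and on design B alone (-0.39, 1 gene). The Rpl median of -0.18 was 0.014 with only suffixed probe sets, -0.39 on design B alone, and -0.053 with equal medians at a signal of at least 1000. The Rps median of -0.057 was 0.036 with equal medians and -0.24 with only suffixed probe sets. The median between the controls, 0.014, turned negative with equal medians (-0.084, and -0.072 at a signal of at least 1000), quantile normalization (-0.014), a floor at the 30th percentile or none (-0.039 in both), the median over a gene's probe sets (-0.013), only suffixed probe sets (-0.052), design B (-0.13) or C (-0.25) alone, and values above the floor on all arrays (-0.012). The count of 2 members at least 1.5-fold lower was 5 with no floor and over single probe sets, 4 with the median over probe sets and at a lower fold threshold, 1 with equal medians, without suffixed probe sets, on design A alone and at 2-fold, and 0 on design B alone and at a signal of at least 1000 (each of 3 such settings). The count of 0 higher was 2 at that lower fold threshold and 1 with no floor, the median over probe sets, single probe sets, only suffixed probe sets, design C alone, floxed/deleted as the sole control, and probe sets of several symbols added. The count of 21 lower by any amount was 10 with only suffixed probe sets, 1 on design B, 6 on design C, 38 with probe sets of several symbols added and 8 with equal medians at a signal of at least 1000. The settings on designs, suffixes and several symbols also change how many genes enter, from 1 to 63, while equal medians at a signal of at least 1000 keep the same number, 20, as that signal alone, where 15 were lower. Probe sets near the floor limit what the dim members show.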
